A study of Mus musculus with 18 samples.

Results

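Most of the 50 genes described here encode subunits of the mouse proteasome and its closest regulators. They were chosen as all protein-coding genes, among 53379 genes counted, whose symbol is Psm, then a letter from a to g, then a digit. This rule uses no expression value, but the members, lists and tests were chosen with earlier results of these data known. Of the 50 genes, 5 belong to the immune form (Psmb8, Psmb9, Psmb10, Psme1 and Psme2) and 31 encode constitutive subunits found in every cell. The other 14 are assembly factors, other activators, an inhibitor, relatives and Psmc3ip, which is no subunit. The RNA came from female BALB/cJ mice, 6 to 8 weeks old, all of them lethally irradiated and all given 10000000 bone marrow cells. In the BMT groups the graft also held 1000000 T cells, and in the BM groups it held none. Neither the strain nor the origin of the donor cells is stated in the labels. Tissue was taken on day 7, as bulk liver and as epithelial cell fractions of the intestine, with 3 BMT and 3 BM libraries in each of 3 tissues. The intestinal labels contradict each other, since code LI stands in the descriptions of samples whose titles say small intestine, and code SI in those whose titles say large intestine. Region markers ran with the codes and against the titles: Hoxb13, a homeobox gene of the hindgut, was at 0 counts in all SI libraries, and Fabp6, the ileal bile acid binding protein gene, did not pass 11.9 CPM in the LI ones. The fractions are therefore called LI-coded and SI-coded epithelium here.

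The proteasome is the barrel-shaped protease that destroys proteins tagged with ubiquitin. Its core particle is built of rings of alpha subunits, which gate the entrance, and rings of beta subunits, of which Psmb5, Psmb6 and Psmb7 carry the catalytic sites in most cells. A regulatory particle of ATPases (the Psmc genes) and other subunits (the Psmd genes) binds, unfolds and feeds in the substrate. In lymphocytes and in cells exposed to interferon gamma, Psmb8, Psmb9 and Psmb10 take the places of Psmb5, Psmb6 and Psmb7 in new particles, and a ring of Psme1 and Psme2 can cap the core. This immunoproteasome is known for cutting peptides that MHC class I molecules present to CD8 T cells. Both the liver and the intestinal epithelium are targets of donor T cells after allogeneic transplantation.

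Each library held 18845483 to 25610937 counts. CPM are counts per 1000000 counts of a library, scaled between the 6 libraries of a tissue by TMM (trimmed mean of M values), and a floor of 3 counts stood at 0.117 to 0.159 CPM, covering counting error only. A ± on CPM is an SD over 3 libraries and a ± on a log2 fold change (BMT over BM) is a standard error. Adjusted p-values are from edgeR's two-sided quasi-likelihood test over all genes of a tissue with Benjamini-Hochberg adjustment, with calls at 0.05. The labels do not say that the libraries come from separate animals, so the p-values speak only for the spread of these samples, which may be technical. The 50 genes together took 0.723 to 0.774% of counts in BMT and 0.459 to 0.487% in BM libraries of LI-coded epithelium. In SI-coded epithelium they took 0.627 to 0.838% in BMT and 0.528 to 0.558% in BM libraries. In liver the shares were 0.334 to 0.384% in BMT and 0.385 to 0.678% in BM libraries.

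The 5 immune genes were all higher in BMT than in BM LI-coded epithelium, where 20.4% of all genes tested were called higher and 21% lower. Psmb8 (ENSMUSG00000024338.14, GRCm38 chr17:34197721-34201454, plus strand), the inducible chymotrypsin-like subunit, had 231, 310 and 351 CPM in BMT libraries, against 68.6, 75.9 and 69.7 CPM in BM libraries. Its means were 298 ± 61.3 CPM in BMT and 71.4 ± 3.92 CPM in BM epithelium. The lowest BMT library thus stood far above the highest BM library, and the log2 fold change was 2.06 ± 0.17 (adjusted p = 6e-06 by edgeR). Psmb9 (ENSMUSG00000096727.2, chr17:34181988-34187764, minus strand), the inducible caspase-like site subunit, lies beside Psmb8 in the MHC region. It had 154, 219 and 275 CPM in BMT against 64.1, 69.9 and 63.9 CPM in BM libraries, a log2 fold change of 1.71 ± 0.19 (adjusted p = 6.01e-05, edgeR). The BM values of both genes lay close together, while their BMT values spread more widely. Psmb10 (ENSMUSG00000031897.9, chr8:105935735-105938444, minus strand), the inducible trypsin-like subunit, had 248, 368 and 443 CPM in BMT against 154, 178 and 134 CPM in BM libraries. The groups did not overlap and the log2 fold change was 1.19 ± 0.20 (adjusted p = 0.000995, edgeR).

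Psme1 and Psme2, the alpha and beta chains of the interferon-inducible activator cap, are neighbours on chromosome 14 and had nearly equal changes in LI-coded epithelium. Psme1 (ENSMUSG00000022216.17, chr14:55578123-55581529, plus strand) had 288, 364 and 419 CPM in BMT against 181, 199 and 183 CPM in BM libraries. Psme2 (ENSMUSG00000079197.10, chr14:55587441-55591113, minus strand) had 342, 385 and 447 CPM in BMT against 176, 210 and 229 CPM in BM libraries. Neither gene's groups overlapped, and the log2 fold changes were 0.93 ± 0.15 for each (adjusted p = 0.00073 for Psme1 and 0.000665 for Psme2 by edgeR). The 5 calls held with each of the 6 libraries left out in turn, and the Psmb8 fold change then stayed between 1.93 and 2.22. BMT replicate 3, the highest library in all 5 immune genes, was the only library of this tissue on sequencing lane 1.

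The same 5 genes were called higher in SI-coded epithelium, where 11.6% of all genes were, with 11.8% lower. Psmb8 had 203, 279 and 233 CPM in BMT against 60.6, 69.6 and 95.8 CPM in BM libraries, a log2 fold change of 1.66 ± 0.20 (adjusted p = 0.000175 by edgeR). Psmb9 had 138, 207 and 171 CPM in BMT against 47.6, 57.6 and 77.1 CPM in BM libraries, a log2 fold change of 1.502 ± 0.21 (adjusted p = 0.000509, edgeR). For both genes the lowest BMT library lay well above the highest BM library, and both calls held with each library left out in turn. The other immune genes changed less. Psmb10 had 246, 346 and 280 CPM in BMT against 171, 169 and 213 CPM in BM libraries, a log2 fold change of 0.66 ± 0.17 (adjusted p = 0.0189, edgeR). Psme1 had 326, 427 and 363 CPM in BMT against 247, 257 and 264 CPM in BM libraries (0.54 ± 0.15, adjusted p = 0.0261). Psme2 had 331, 412 and 372 CPM in BMT against 276, 260 and 277 CPM in BM libraries (0.46 ± 0.15, adjusted p = 0.0455). None of these groups overlapped, but the calls of these 3 genes were not stable: the count of immune genes called was 2 when BMT replicate 2, BM replicate 1 or BM replicate 2 was left out, 3 when BM replicate 3 was, 4 when BMT replicate 3 was and 5 when BMT replicate 1 was. BMT replicate 2, the highest library in all 5 immune genes, was the only library of this tissue on sequencing lane 1. In both epithelial sets lane 1 thus held a BMT library and no BM library.

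**Figure D1:**
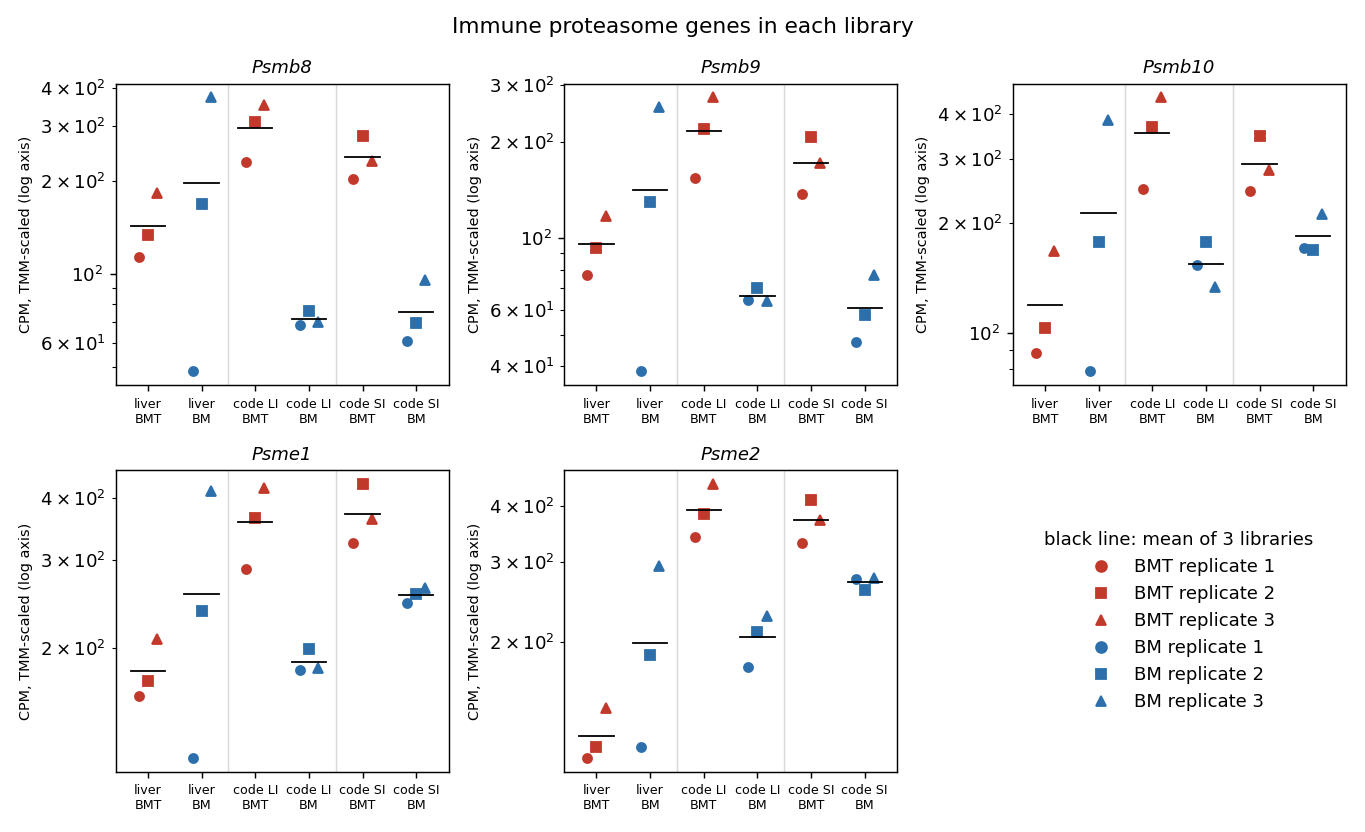
TMM-scaled CPM (log axis) of the 5 immune genes in each library, by tissue and graft, with BMT in red, BM in blue and a black line at the mean of 3 libraries. In both epithelial sets the BMT libraries sit above all BM libraries for each gene (for Psmb8 in LI-coded epithelium 231 to 351 against 68.6 to 75.9 CPM), while in liver the groups overlap for each gene (113 to 183 CPM in BMT against 48.4 to 373 CPM in BM livers for Psmb8).

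Genes of leukocytes were also higher in BMT than in BM libraries of both epithelial sets. The summed level of 8 T cell genes ran from 238 to 347 CPM in BMT and from 1.65 to 2.23 CPM in BM libraries of LI-coded epithelium, with Cd5 at 0 in all 3 BM libraries. Among the LI-coded BMT libraries the order was the opposite of that of the immune genes: replicates 1, 2 and 3 had T cell sums of 347, 301 and 238 CPM and leukocyte sums of 473, 405 and 294 CPM, and replicate 1 was the lowest and replicate 3 the highest in all 5 immune genes. In SI-coded epithelium the T cell sum ran from 112 to 175 CPM in BMT and from 1.44 to 5.72 CPM in BM libraries. All 8 T cell genes and all 5 general leukocyte genes were called higher in BMT in both sets. The share over all genes was 20.4% in LI-coded and 11.6% in SI-coded epithelium. The leukocyte sum reached 294 to 473 CPM in LI-coded BMT and 177 to 226 CPM in SI-coded BMT libraries, against 4.13 to 6.25 and 2.66 to 10.6 CPM in the BM ones. In SI-coded epithelium the BMT libraries had the same order in both sums as in the 5 immune genes, with replicate 1 the lowest and replicate 2 the highest. The sum of 6 macrophage genes was 8.54 to 20.6 CPM in BMT and 1.91 to 2.62 CPM in BM libraries of LI-coded epithelium, and 5.30 to 8.54 CPM in BMT and 2.88 to 4.18 CPM in BM libraries of SI-coded epithelium. It did not share the order of the immune genes in SI-coded BMT replicates 1, 2 and 3, at 8.54, 5.30 and 5.61 CPM. There replicate 1 was the highest and replicate 2 the lowest. Epithelial genes were also abundant, with a sum of 6 genes at 14663 to 19823 CPM in BMT and 11048 to 12659 CPM in BM libraries of LI-coded epithelium, and at 15140 to 17505 CPM in BMT and 11368 to 13386 CPM in BM libraries of SI-coded epithelium. Markers of the gut region and mitochondrial transcripts moved as well. The sum of 8 large intestine genes was 6258 to 9826 CPM in BMT and 11971 to 12898 CPM in BM libraries of LI-coded epithelium, and that of 8 small intestine genes was 7825 to 14713 CPM in BMT and 15702 to 21499 CPM in BM libraries of SI-coded epithelium. Mitochondrial transcripts took 6.24 to 7.46% of counts in LI-coded BMT and 9.72 to 10.7% in LI-coded BM libraries, and 4.83 to 6.01% in SI-coded BMT and 7.3 to 8.63% in SI-coded BM libraries. The part of these shifts and of the leukocytes in the proteasome values was not tested. In bulk RNA, more cells of a type and more RNA per cell cannot be told apart.

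The promoters of these genes are shown because all 5 immune genes were called higher in both epithelial sets. The windows run from 250 bases before to 50 bases after the transcription start in the RefSeq table (GRCm38.p6) and are written 5′ to 3′ on the gene's strand. Capitals mark matches, on either strand, to 3 motifs: the interferon-stimulated response element core (GAAA, any 2 bases, GAAA), the gamma-activated site TTCNNNGAA and the antioxidant response element core TGACNNNGC. No matches overlapped each other within a window. Psmb8 (chr17:34197945-34198244, plus strand) and Psmb9 (chr17:34187281-34187580, minus strand) had the highest fold changes, Psme1 (chr14:55578244-55578543, plus strand) holds the one interferon-stimulated element found among the immune genes, and Psmb5 (chr14:54617946-54618245, minus strand) is the constitutive counterpart of Psmb8.
Psmb8: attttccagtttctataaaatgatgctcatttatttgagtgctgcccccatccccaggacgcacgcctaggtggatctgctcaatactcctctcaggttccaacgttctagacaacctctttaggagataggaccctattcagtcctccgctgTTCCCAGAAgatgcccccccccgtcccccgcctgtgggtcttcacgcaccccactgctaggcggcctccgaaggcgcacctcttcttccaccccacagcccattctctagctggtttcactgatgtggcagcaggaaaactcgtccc
Psmb9: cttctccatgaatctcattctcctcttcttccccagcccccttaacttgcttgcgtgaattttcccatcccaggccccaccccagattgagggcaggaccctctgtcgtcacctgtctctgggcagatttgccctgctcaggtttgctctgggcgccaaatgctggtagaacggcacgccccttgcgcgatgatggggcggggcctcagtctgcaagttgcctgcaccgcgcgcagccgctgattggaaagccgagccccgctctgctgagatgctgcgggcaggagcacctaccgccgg
Psme1: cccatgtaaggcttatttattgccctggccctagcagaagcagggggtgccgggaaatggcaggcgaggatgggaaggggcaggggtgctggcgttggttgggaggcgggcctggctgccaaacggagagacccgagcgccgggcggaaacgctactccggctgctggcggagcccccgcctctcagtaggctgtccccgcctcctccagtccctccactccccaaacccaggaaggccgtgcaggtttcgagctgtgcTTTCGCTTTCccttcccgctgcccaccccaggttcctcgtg
Psmb5: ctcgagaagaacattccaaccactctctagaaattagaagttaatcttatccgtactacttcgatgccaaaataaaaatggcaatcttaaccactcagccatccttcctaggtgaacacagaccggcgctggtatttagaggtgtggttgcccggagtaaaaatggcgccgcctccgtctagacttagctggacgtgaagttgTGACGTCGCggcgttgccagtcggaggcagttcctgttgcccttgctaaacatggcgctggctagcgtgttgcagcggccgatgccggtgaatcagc
With the start base as 0, the Psmb8 match (gamma-activated site) begins at -97, the Psme1 match (interferon-stimulated element, read on the opposite strand) at 9 and the Psmb5 match (antioxidant element) at -47. Psmb9 and the windows of Psmb10 and Psme2 hold no match to these letters. Of all 32544 windows, 3.45% hold the interferon-stimulated core, 8.33% the gamma-activated site and 12.4% the antioxidant core. Of the 5 immune genes 1 holds the first, 1 the second and 0 the third. Windows were matched for 25 of the 31 constitutive genes, and 2 of them hold the first (Psmb3 and Psmd4), 1 the second (Psmd2) and 4 the third (Psmb5, Psmb6, Psmc6 and Psmd12). A match describes the letters only.

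Within each library the inducible catalytic subunit was set against the one it replaces, as the log2 ratio of CPM per kilobase of exon. The ratio of Psmb8 to Psmb5 was 0.75, 0.91 and 1.04 in BMT against -0.77, -0.55 and -0.41 in BM libraries of LI-coded epithelium. Per length, it thus crossed zero: Psmb8 stood above Psmb5 in each BMT library and below it in each BM library. The length is the summed exon length of a gene (2736 bases for Psmb8 and 899 for Psmb5). The sign of a ratio depends on these lengths, while its shift between BMT and BM does not. In CPM without division by length, Psmb8 stood above Psmb5 in each LI-coded library, BM ones included. The difference of the mean ratios was 1.48 on the log2 scale, a 2.78-fold shift. In SI-coded epithelium this ratio was 0.32, 0.83 and 0.97 in BMT against -0.88, -0.33 and -0.21 in BM libraries, a 2.27-fold shift, again with a change of sign between the groups. Per length, Psmb9 stayed below Psmb6 in all 18 libraries, although in CPM it stood above Psmb6 in some, such as LI-coded BMT replicates 2 and 3. The ratio of Psmb9 to Psmb6 was 2.37-fold higher in BMT than in BM LI-coded epithelium and 2.34-fold higher in SI-coded epithelium, with no overlap of the groups. The ratio of Psmb10 to Psmb7 behaved differently. It was 2.07, 2.69 and 2.89 in BMT against 2.13, 2.16 and 1.63 in BM libraries of LI-coded epithelium, and 1.73, 2.32 and 2.42 in BMT against 1.79, 2.01 and 2.42 in BM libraries of SI-coded epithelium. Here the groups overlapped in both sets, and the differences of the means were 0.58 and 0.08. A two-sided exact permutation test on 3 against 3 libraries cannot go below 0.1, and the ratios of Psmb8 and Psmb9 reached that value in both epithelial sets (0.225 after adjustment over the 9 ratios), while those of Psmb10 gave 0.3 in LI-coded and 0.9 in SI-coded epithelium.

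**Figure D2:**
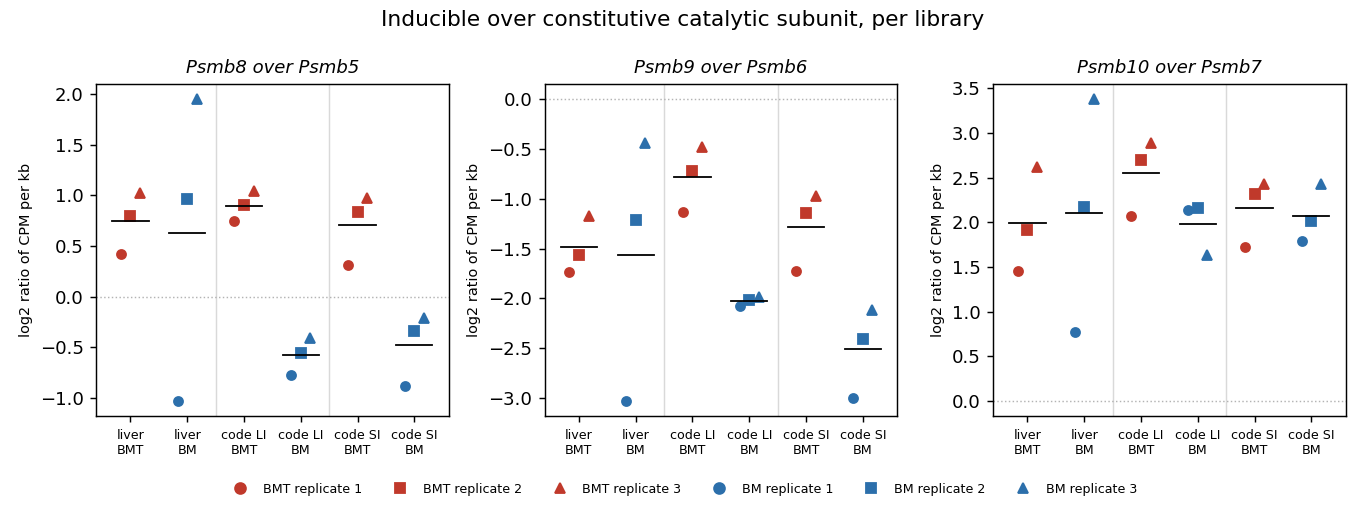
Log2 ratio of CPM per kilobase, inducible over constitutive catalytic subunit, in each library by tissue and graft (BMT red, BM blue, black line at the mean of 3 libraries, dotted line at equal levels). The ratio of Psmb8 to Psmb5 is above 0 in each BMT and below 0 in each BM epithelial library (means 0.90 against -0.58 in LI-coded epithelium), whereas the groups overlap for Psmb10 over Psmb7 and in liver. The side of 0 depends on the summed exon lengths used, while the shift between groups does not.

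None of the catalytic subunits that are replaced was called lower in the epithelium. Psmb5 had 45.3, 54.5 and 56.2 CPM in BMT against 38.6, 36.6 and 30.5 CPM in BM libraries of LI-coded epithelium, and the log2 fold change was 0.56 ± 0.15 (adjusted p = 0.0104 by edgeR). Psmb7 had 119, 114 and 120 CPM in BMT against 70.4, 79.7 and 86.7 CPM in BM libraries (0.58 ± 0.12, adjusted p = 0.00386). Psmb6 had 173, 185 and 197 CPM in BMT against 138, 145 and 130 CPM in BM libraries (0.43 ± 0.12, adjusted p = 0.015), a call that was lost when any one of the 3 BM libraries was left out (adjusted p up to 0.0582, edgeR). All 3 genes had BMT libraries above all BM libraries there. In SI-coded epithelium Psmb7 rose, with 149, 139 and 105 CPM in BMT against 99.5, 84.1 and 79.6 CPM in BM libraries (0.58 ± 0.17, adjusted p = 0.0313). Psmb5 and Psmb6 were not called, with log2 fold changes of 0.50 ± 0.18 (adjusted p = 0.0648) and 0.29 ± 0.17 (adjusted p = 0.239). The Psmb7 call in SI-coded epithelium was lost without BMT replicate 1, BMT replicate 2, BM replicate 2 or BM replicate 3 (adjusted p = 0.0667 to 0.126 by edgeR). Psmb7 shares 405 exon bases (11.8% of its length) with Nek6 on the other strand, and whether the counting used strand is not stated.

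Many constitutive subunits were called higher in the epithelial sets, and the number depended on single libraries. With a library left out it ran from 20 to 29 in LI-coded and from 3 to 26 in SI-coded epithelium. In LI-coded epithelium 27 of 31 were called higher and 0 lower, beside 20.4% of all genes higher and 21% lower. The median log2 fold change was 0.578, against 0.002 over all genes tested. All 31 changes were positive, from 0.104 in Psma4 to 0.899 in Psma5. Each immune gene there, at 0.928 or more, lay above each constitutive one, but Psme1 and Psme2 lay above Psma5 by less than their standard errors. With a library left out the ranges of these 3 genes overlapped (0.81 to 1.07 in Psme1, 0.83 to 1.04 in Psme2 and 0.80 to 1 in Psma5). In SI-coded epithelium 17 of 31 were called higher and 0 lower, beside 11.6% of all genes higher and 11.8% lower. The median there was 0.548 against 0.023 over all genes. The changes ran from 0.152 in Psmb1 to 0.947 in Psmd1, a range that also held Psmb10, Psme1 and Psme2, while Psmb8 and Psmb9 lay above it. BMT libraries were above all BM libraries for 27 constitutive genes in LI-coded and 24 in SI-coded epithelium, where 26.1 and 19% of all genes showed this. The count in SI-coded epithelium was 3 when BMT replicate 1, BM replicate 2 or BM replicate 3 was left out, 8 when BMT replicate 2 was, 12 when BM replicate 1 was and 26 when BMT replicate 3 was.

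By role, the alpha ring had 5 of 7 genes called higher in LI-coded and 3 of 7 in SI-coded epithelium, beside 20.4 and 11.6% of all genes. Psma5, an alpha ring subunit, had 179, 165 and 163 CPM in BMT against 78.3, 92.7 and 100 CPM in BM libraries of LI-coded epithelium (log2 fold change 0.90 ± 0.13, adjusted p = 0.000359 by edgeR). Psma1, another alpha ring subunit, had 247, 211 and 177 CPM in BMT against 136, 120 and 120 CPM in BM libraries of SI-coded epithelium (0.76 ± 0.16, adjusted p = 0.0064). Psma5 had 205, 212 and 142 CPM in BMT against 135, 113 and 111 CPM in BM libraries of SI-coded epithelium (0.64 ± 0.18, adjusted p = 0.0255), a call that was lost without BMT replicate 1, BMT replicate 2, BM replicate 2 or BM replicate 3 (up to 0.107). The third alpha ring call in SI-coded epithelium was Psma3, which held in 3 of 6 fits with a library left out (adjusted p up to 0.12 by edgeR). Of the 4 beta ring subunits without catalytic sites, 3 were called higher in LI-coded (Psmb2, Psmb3 and Psmb4) and 1 in SI-coded epithelium (Psmb3), and Psmb1 was called in neither (0.11 ± 0.12 and 0.15 ± 0.17). The SI-coded call of Psmb3 held in 2 of 6 fits with a library left out (adjusted p up to 0.157 by edgeR).

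Most genes of the regulatory particle were called higher too, beside 20.4% of all genes in LI-coded and 11.6% in SI-coded epithelium. Its 6 ATPases, which unfold the substrate, had 5 genes called higher in LI-coded (all but Psmc6) and 4 in SI-coded epithelium (Psmc1 to Psmc4). With a library left out the SI-coded calls held in 2 of 6 fits for Psmc1 and in 1 each for Psmc2, Psmc3 and Psmc4 (adjusted p up to 0.175 by edgeR). Psmc3, one of these ATPases, had 246, 257 and 272 CPM in BMT against 145, 152 and 156 CPM in BM libraries of LI-coded epithelium (0.77 ± 0.12, adjusted p = 0.000436 by edgeR). Of the 11 non-ATPase subunits, 11 were called higher in LI-coded and 8 in SI-coded epithelium. Among these SI-coded calls, only those of Psmd1 and Psmd12 held with each library left out. The largest change in SI-coded epithelium was that of Psmd1, a large scaffold subunit, with 284, 211 and 180 CPM in BMT against 111, 120 and 119 CPM in BM libraries (0.95 ± 0.18, adjusted p = 0.00322). Psmd14, the deubiquitinase of the lid, had 163, 118 and 109 CPM in BMT against 89.7, 77.4 and 82.1 CPM in BM libraries of SI-coded epithelium (0.65 ± 0.17, adjusted p = 0.0215). Psmd12, another lid subunit, had 135, 105 and 89.1 CPM in BMT against 65.4, 67.8 and 66.2 CPM in BM libraries there (0.72 ± 0.17, adjusted p = 0.0109). For these 3 genes BMT replicate 1 was the highest library, and the Psmd14 call was lost without BMT replicate 1, BM replicate 2 or BM replicate 3 (adjusted p up to 0.0997 by edgeR). In LI-coded epithelium Psmd13, also of the lid, had 186, 169 and 194 CPM in BMT against 103, 108 and 113 CPM in BM libraries (0.76 ± 0.12, adjusted p = 0.00056).

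**Figure D3:**
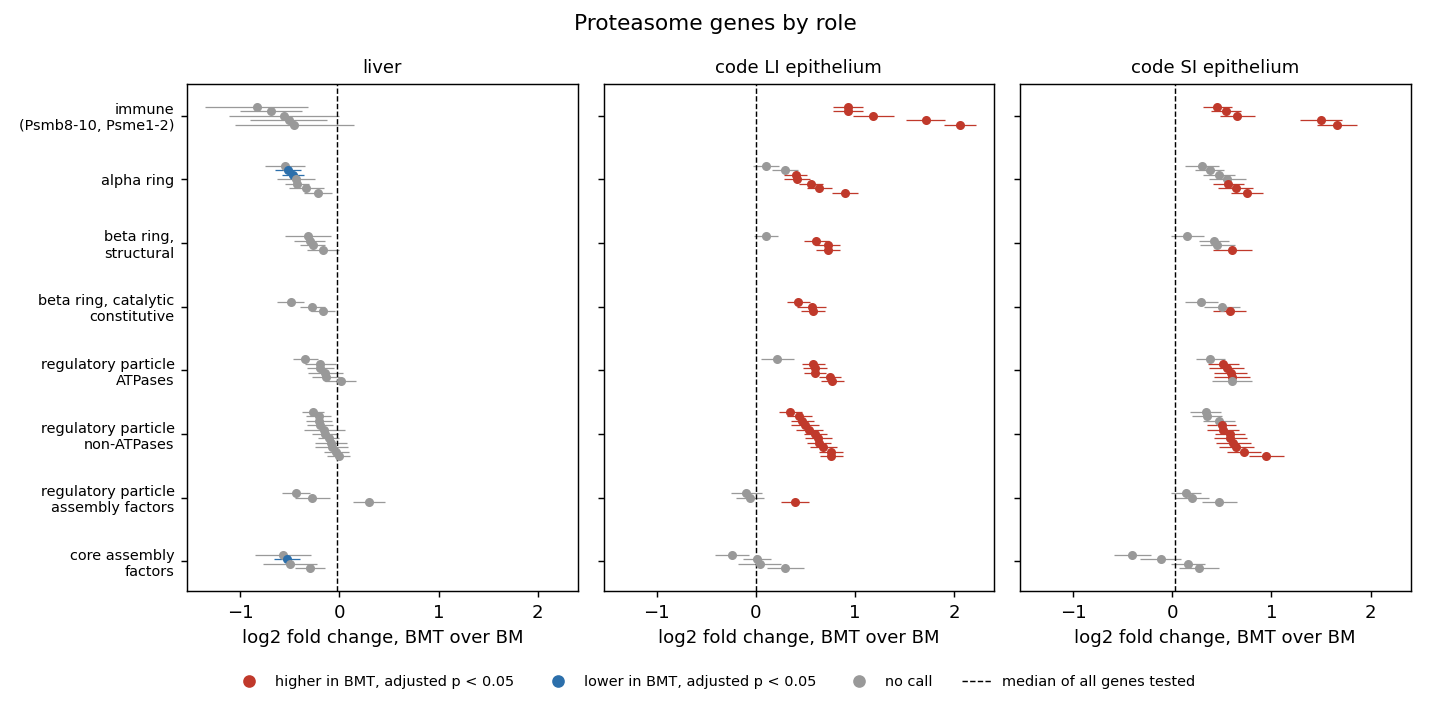
Log2 fold change (BMT over BM) with its standard error for each tested gene of 8 roles, in liver, LI-coded and SI-coded epithelium, coloured by call at adjusted p 0.05, with a dashed line at the median of all genes tested. In LI-coded epithelium the 5 immune genes lie to the right of the 31 constitutive ones, Psme1 and Psme2 by less than their standard errors. In SI-coded epithelium only Psmb8 and Psmb9 do, and in liver most points lie left of the line.

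Other activators, the inhibitor and the assembly factors were less uniform. Psme3, the nuclear activator that is not induced by interferon gamma, had 214, 204 and 199 CPM in BMT against 120, 131 and 145 CPM in BM libraries of LI-coded epithelium (0.64 ± 0.12, adjusted p = 0.00202 by edgeR). It was not called in SI-coded epithelium (0.29 ± 0.15, adjusted p = 0.202). Psme4, a nuclear activator abundant in testis, was called in neither set (-0.07 ± 0.16 in LI-coded and 0.57 ± 0.22 in SI-coded epithelium, adjusted p = 0.741 and 0.0873). Psmf1, a proteasome inhibitor, was called higher in LI-coded epithelium (0.36 ± 0.13, adjusted p = 0.0435, up to 0.128 with a library left out) and not in SI-coded epithelium (0.04 ± 0.16). The 4 core assembly chaperones Psmg1 to Psmg4 were not called in either set, with log2 fold changes from -0.238 to 0.298 in LI-coded and from -0.404 to 0.272 in SI-coded epithelium. Of the 3 assembly factors of the regulatory particle, Psmd9 was called higher in LI-coded epithelium (0.40 ± 0.14, adjusted p = 0.0446, up to 0.12 with a library left out), and Psmd5 and Psmd10 were not. In all, 5 of the 12 tested genes outside the immune and constitutive classes were called higher in LI-coded epithelium, beside 20.4% of all genes. That count was 3 without BMT replicate 2 or any one BM library. In SI-coded epithelium 0 of these 12 were called by edgeR or DESeq2, beside 11.6% of all genes called higher and 11.8% lower by edgeR. There 4 of them (Psmc3ip, Psmd9, Psme2b and Psme4) had an unadjusted p under 0.05, as had 5245 of all 14621 genes tested. Nothing particular to these genes is read from that count.

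The other 2 calls in LI-coded epithelium were in Psmc3ip and Psme2b. Psmc3ip is no subunit but a meiotic recombination factor named for its binding to Psmc3, and it had 6.29, 6.90 and 4.93 CPM in BMT against 2.25, 1.63 and 2.38 CPM in BM libraries (1.53 ± 0.24, adjusted p = 0.000654 by edgeR). It shares 385 exon bases (21.2% of its length) with Mlx on the other strand, which had 145 CPM in BMT and 132 CPM in BM libraries, and whether reads of Mlx entered its counts was not tested. Psme2b is a close copy of Psme2, at 5.41, 5.99 and 7.07 CPM in BMT against 3.80, 2.91 and 2.85 CPM in BM libraries (0.95 ± 0.22, adjusted p = 0.00607), and reads of the 2 copies may have been shared between them. Psmb11, the thymus-specific core subunit, had 0 counts in all 18 libraries. Psma8, the testis-specific alpha subunit, had 1.11, 1.07 and 1.19 CPM in BMT and 1.74, 1.01 and 1.18 CPM in BM livers, and at most 0.218 CPM in an epithelial library. The low-count filter removed Psmb11 in each tissue and Psma8 in both epithelial sets, so that 49 members were tested in liver and 48 in each epithelial set. Counted together, 37 of 48 members were called higher in LI-coded and 22 of 48 in SI-coded epithelium, beside 20.4 and 11.6% of all genes. No member was called lower in either set by edgeR or DESeq2, and 0 were lower at an unadjusted p under 0.05. Of all genes 21% were called lower by edgeR in LI-coded and 11.8% in SI-coded epithelium.

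In liver 0 of the 5 immune genes were called by edgeR or DESeq2, while 7.46% of all genes were called higher there and 3.35% lower. An unadjusted p under 0.05 was found in 0 of the 5, and in 3705 of all 14134 genes tested. Psmb8 had 113, 134 and 183 CPM in BMT livers, against 48.4, 168 and 373 CPM in BM livers (-0.46 ± 0.60, adjusted p = 0.676 by edgeR). Psmb9 had 76.8, 93.6 and 117 CPM in BMT against 38.6, 130 and 256 CPM in BM livers (-0.56 ± 0.56, adjusted p = 0.571). The 3 BMT livers thus lay within the range of the BM livers for both genes. Psmb10 had 88.1, 103 and 168 CPM in BMT against 78.6, 178 and 385 CPM in BM livers (-0.84 ± 0.52, adjusted p = 0.354). Psme1 had 160, 172 and 208 CPM in BMT against 120, 238 and 414 CPM in BM livers (-0.51 ± 0.39, adjusted p = 0.447). Psme2 had 111, 117 and 143 CPM in BMT against 117, 187 and 294 CPM in BM livers (-0.69 ± 0.31, adjusted p = 0.205). In each of the 5 genes BM replicate 3 was the highest of the 6 livers, and BM replicate 1 was the lowest of the 3 BM livers.

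The BM livers differed along the same order in Ubd, an interferon-inducible ubiquitin-like modifier that sends proteins to the proteasome. Ubd had 10.4, 10.6 and 16.4 CPM in BMT against 0.669, 3.53 and 56.1 CPM in BM livers. BM replicate 3 stood above all other livers. The leukocyte sum was 136 to 170 CPM in BMT livers and 32.2, 40.4 and 62.5 CPM in BM replicates 1, 2 and 3, in the same order within the BM group but above it in each BMT liver. The T cell sum was 45.5 to 50.4 CPM in BMT livers and 2.99, 2.82 and 4.23 CPM in BM replicates 1, 2 and 3. The hepatocyte sum was 123095 to 153176 CPM in BMT livers and 166402, 123083 and 93936 CPM in BM replicates 1, 2 and 3. All 6 neutrophil genes were called higher in BMT livers, with sums of 95.3 to 424 CPM in BMT and 8.45 to 14.7 CPM in BM livers. So were 3 of 6 macrophage genes, with sums of 222 to 251 CPM in BMT and 164 to 181 CPM in BM livers. In BM replicates 1, 2 and 3 the neutrophil sums were 14.7, 13.9 and 8.45 CPM and the macrophage sums 164, 181 and 174 CPM. The neutrophil sums thus ran against the order of the immune genes, and the T cell and macrophage sums did not follow it. Of all genes 7.46% were called higher there. Mitochondrial transcripts took 2.77 to 3.08% of counts in BMT and 4.22 to 5.26% in BM livers. Their part in the liver values was not tested. Without BM replicate 3 the log2 fold changes were 0.40 in Psmb8 (adjusted p = 0.576), 0.19 in Psmb9, 0.01 in Psme1, -0.10 in Psmb10 and -0.30 in Psme2. Without BM replicate 1 they were between -1.23 (Psmb10) and -0.86 (Psme1), and Psme2 passed the threshold at -0.96 (adjusted p = 0.0411). The direction in liver thus turned with BM replicate 3 for Psmb8, Psmb9 and Psme1, while the values of Psmb10 and Psme2 were negative with each library left out. BM replicate 3 was sequenced on lane 1 with BMT replicate 2, and with the 4 lane 2 livers alone the change of Psmb8 was 0.45 (adjusted p = 0.643) and that of Psmb10 was 0.00.

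**Figure D4:**
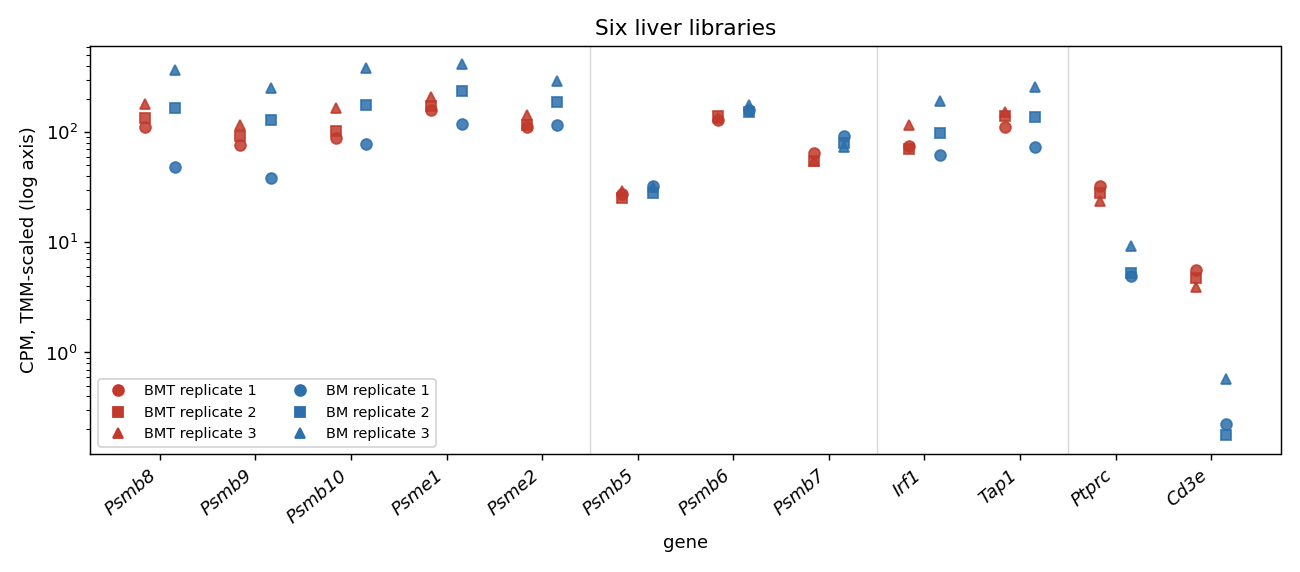
TMM-scaled CPM (log axis) of immune and constitutive catalytic proteasome genes, interferon-response genes and leukocyte genes in the 6 livers, BMT in red and BM in blue, with a symbol for each replicate. The 3 BM livers are spread over the immune genes (48.4, 168 and 373 CPM for Psmb8) but lie close together for Psmb5, Psmb6 and Psmb7, and all BMT livers exceed all BM livers in Ptprc and Cd3e.

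The constitutive subunits had small changes in liver. Their median log2 fold change was -0.206, against -0.022 over all genes tested, with 30 of 31 changes negative. Of the 31 genes 0 were called higher and 2 lower, beside 7.46% of all genes higher and 3.35% lower. Both calls were in the alpha ring. Psma3 had 95.5, 95.9 and 95.3 CPM in BMT against 131, 132 and 134 CPM in BM livers, values that were nearly constant within each group (-0.47 ± 0.11, adjusted p = 0.036 by edgeR). Psma4 had 111, 111 and 110 CPM in BMT against 143, 156 and 178 CPM in BM livers (-0.52 ± 0.13, adjusted p = 0.0441). The third lower call among the 49 members tested was Psmg2, a chaperone of alpha ring assembly, with 8.55, 9.07 and 8.17 CPM in BMT against 12.5, 13.1 and 11.5 CPM in BM livers (-0.53 ± 0.13, adjusted p = 0.0444), a call that held in 1 of 6 fits with a library left out (up to 0.157). Each BMT liver lay below each BM liver in 13 constitutive genes and in 17 members in all, and 15.5% of all genes tested showed this. Psmb7 had 64.6, 55.0 and 54.7 CPM in BMT against 92.1, 79.4 and 74.2 CPM in BM livers (-0.49 ± 0.14, adjusted p = 0.0612). Psmb5 and Psmb6 changed by -0.16 ± 0.12 and -0.28 ± 0.13 (adjusted p = 0.441 and 0.211). The count of 2 lower constitutive calls was 0 without any one BMT liver or BM replicate 2, 1 without BM replicate 1 and 4 without BM replicate 3.

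Whether the BMT effect differed from tissue to tissue was tested in 1 edgeR model of all 18 libraries. That model takes a single spread for each gene over the tissues, although the immune genes spread most widely among BM livers. Its standard errors may thus be too small for liver, and its differences need not equal those between the separate fits. All 5 immune genes had a lower effect in liver than in LI-coded epithelium, as had 24 of 31 constitutive genes, and 8.13% of all genes were called in this direction. For Psmb8 the difference of log2 fold changes, liver minus LI-coded epithelium, was -2.15 ± 0.51 (adjusted p = 0.0087), and for Psmb9 -1.92 ± 0.47 (adjusted p = 0.0109). Against SI-coded epithelium 3 immune and 17 constitutive genes were called lower in liver, with 6.32% of all genes. There Psmb8 differed by -1.88 ± 0.50 (adjusted p = 0.0215), while Psmb10 and Psme1 were not called (-1.36 ± 0.46 and -0.93 ± 0.36, adjusted p = 0.0617 and 0.0942). Between the epithelial sets 0 of the 49 members tested were called, where 2.4% of all genes were called higher in SI-coded epithelium and 2.51% lower. The difference in Psmb8, SI-coded minus LI-coded, was -0.27 ± 0.49 and that in Psme2 was -0.47 ± 0.28. At an unadjusted threshold of 0.05 there were 2 members, Psme4 (0.66 ± 0.27, adjusted p = 0.188 by edgeR) and Psmc3ip (-0.89 ± 0.41, adjusted p = 0.236 by edgeR). Of all 17275 genes tested, 3541 passed that threshold. The counts against liver depended on which BMT or BM libraries, of 1 number in all 3 tissues, were left out: 3 to 5 immune and 7 to 20 constitutive genes for LI-coded, and 0 to 5 and 7 to 19 for SI-coded epithelium, with 0 immune genes for SI-coded epithelium without BM replicates 2, BMT replicates 1 or BMT replicates 2. The differences against LI-coded epithelium held in all 6 such fits for Psmb7, Psmb8 and Psme2, in 5 for Psmb9 and Psme3, in 3 for Psmb10, in 1 for Psme1 and in 0 for Psmb5 and Psmb6. Those against SI-coded epithelium held in all 6 for Psmb7, in 3 for Psmb9 and in 2 for Psmb8 and Psme2.

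Genes that work upstream and downstream of the immunoproteasome were read from lists of the pathway. Of 11 genes of interferon gamma signalling, against 20.4, 11.6 and 7.46% of all genes called higher in LI-coded epithelium, SI-coded epithelium and liver, 5 were called higher in LI-coded epithelium (Ifng and Nlrc5 among them), 8 in SI-coded epithelium and 0 in liver, and 0 lower in any tissue. By DESeq2 1 was called higher in liver, Ifng. At an unadjusted p under 0.05 edgeR had 2 there, Ifng and Ifngr1, beside 3705 of all 14134 genes tested. In SI-coded epithelium the calls of Jak1 and Jak2 each held in 1 of 6 fits with a library left out (adjusted p up to 0.112 and 0.108 by edgeR). The Irf8 call there held in 3 (up to 0.0955). The median log2 fold changes of the 11 genes were 0.330 in LI-coded epithelium, 0.758 in SI-coded epithelium and 0.076 in liver. Ifng itself had 9.23, 9.37 and 5.64 CPM in BMT against 0, 0 and 0.0781 CPM in BM libraries of LI-coded epithelium. In SI-coded epithelium Ifng had 3.53, 3.59 and 3.51 CPM in BMT libraries and 0 counts in all 3 BM libraries. BMT livers had 0.740, 0.899 and 1.99 CPM and BM livers 0, 0.132 and 0.325 CPM of Ifng, which did not pass the threshold (adjusted p = 0.0512 by edgeR). Nlrc5, the transactivator of MHC class I genes, had 66.4, 59.98 and 71.6 CPM in BMT against 11.1, 12.2 and 12.1 CPM in BM libraries of LI-coded epithelium (2.48 ± 0.14, adjusted p = 4.7e-07). Irf1, an interferon response factor, rose by 1.03 ± 0.17 in LI-coded epithelium (adjusted p = 0.000861).

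Of 9 genes that carry peptides to MHC class I, 6 were called higher in LI-coded epithelium, 5 in SI-coded epithelium (Tap1, Tap2, Tapbp, Tapbpl and B2m) and 0 in liver, and 0 lower, beside the same 20.4, 11.6 and 7.46% of all genes. Their medians were 1.257, 0.614 and -0.153 in the same order of tissues. The Tapbp call in SI-coded epithelium held in 1 of 6 fits with a library left out (adjusted p up to 0.147 by edgeR). Tap1, a subunit of the peptide transporter, had 277, 375 and 444 CPM in BMT against 104, 114 and 83.4 CPM in BM libraries of LI-coded epithelium (1.86 ± 0.19, adjusted p = 3.23e-05 by edgeR), and 198, 353 and 239 CPM in BMT against 55.4, 58.3 and 89.5 CPM in BM libraries of SI-coded epithelium (1.96 ± 0.25, adjusted p = 0.000269). Tap1 shares 212 exon bases (5.79% of the Psmb9 length) with Psmb9 on the other strand, so that counts of the 2 genes may not be independent. B2m, the light chain of MHC class I, had 2728, 3047 and 2983 CPM in BMT against 760, 927 and 956 CPM in BM libraries of LI-coded epithelium (1.73 ± 0.14, adjusted p = 6.39e-06).

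Among 26 partners of the proteasome and of ubiquitin, 7 were called higher and 3 lower in LI-coded epithelium, 4 higher and 1 lower in SI-coded epithelium, and 0 higher and 1 lower in liver. The share over all genes was 20.4% higher and 21% lower in LI-coded epithelium, 11.6% higher and 11.8% lower in SI-coded epithelium and 7.46% higher and 3.35% lower in liver, and nothing particular to the partners is read from these counts. Their medians were 0.134 in LI-coded epithelium, 0.320 in SI-coded epithelium and -0.219 in liver. Ubd had 129, 241 and 179 CPM in BMT against 5.002, 9.49 and 6.05 CPM in BM libraries of LI-coded epithelium (4.74 ± 0.30, adjusted p = 1.02e-06 by edgeR), and 52.7, 71.8 and 54.8 CPM in BMT against 3.30, 5.28 and 3.96 CPM in BM libraries of SI-coded epithelium (3.83 ± 0.23, adjusted p = 4.63e-06). Each BMT library thus exceeded each BM library many times over. Adrm1, a ubiquitin receptor of the regulatory particle, rose in LI-coded (0.85 ± 0.16, adjusted p = 0.00209) and SI-coded epithelium (0.62 ± 0.16, adjusted p = 0.0198). So did Pomp, the maturation factor of the core (0.68 ± 0.14 and 0.47 ± 0.15, adjusted p = 0.00278 and 0.0425), and Vcp, the ATPase that extracts ubiquitinated proteins (0.40 ± 0.11 and 0.51 ± 0.15, adjusted p = 0.017 and 0.0342). In SI-coded epithelium these calls held in 2 of 6 fits with a library left out for Adrm1 (adjusted p up to 0.109 by edgeR), in 2 for Pomp (up to 0.193) and in 1 for Vcp (up to 0.138), and in LI-coded epithelium the Vcp call held in 4 (up to 0.0973). Ngly1 and Ddi2, which process the transcription factor Nfe2l1 that drives proteasome genes when the proteasome is blocked, were 2 of the 3 lower calls in LI-coded epithelium (-0.57 ± 0.15 and -0.48 ± 0.13, adjusted p = 0.0117 for each), with Ecpas as the third (-0.41 ± 0.13, adjusted p = 0.0251). The Ngly1 call held with each library left out, while that of Ddi2 held in 5 of 6 fits (up to 0.0683) and that of Ecpas in 2 (up to 0.089). Nfe2l1 itself was called in no tissue. The liver call was Usp14, a deubiquitinase bound to the proteasome, at 32.3, 27.4 and 28.8 CPM in BMT against 40.5, 39.2 and 40.2 CPM in BM livers (-0.44 ± 0.11, adjusted p = 0.0494). That call was lost under most other settings, with adjusted p up to 0.197 over the libraries left out.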

How the data were processed

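Poly(A) RNA was read from 18 libraries of a stranded kit. For 53379 genes the authors deposited raw counts, as whole numbers. Per the submitters' processing notes, the build was GRCm38.p5 and the tools were featureCounts 1.6.3, STAR 2.7.0e and FastQC 0.11.9. Annotation and strand setting are not stated. BALB/c reads met a C57BL/6J genome, and any effect on single genes was not tested. Names came from GENCODE M21 for 53274 of the IDs, and 0.00257% of counts had none. In the pattern of symbols, 4 pseudogenes were left out (at most 0.644 CPM), and partner gene Paaf1 was unmatched. Library groups followed the code and graft in the descriptions.

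Each tissue was fitted with edgeR 4.0.16 (R 4.3.3: expression filter, TMM, quasi-likelihood, Benjamini-Hochberg adjustment, calls at 0.05). Differences between tissues were fitted over 18 libraries with the number in the descriptions as a block. Scripts were tested on simulated data. Alternatives were RLE size factors, no filter (any count of at least 1), a replicate block, each library left out, lane 2 only, DESeq2 1.42.0 and 0.5 CPM added to ratios. Replicates were no duplicates (chi-square per degree of freedom of their counts 9.86 to 187). Members, lists and tests were chosen with earlier results of these data known. The genes named are the immune genes and their counterparts, then the 5 largest rises and falls among called members, filtered members, and up to 4 genes per list by p. Others, including those named because a count was 5 or fewer, were chosen after their values were seen. Values of some genes of the lists are not reported here.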

Additional observations from a re-analysis of the deposited data

Results flagged for a closer look

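The BMT effect differed between liver and the epithelial sets by the test of the difference itself (edgeR, all 18 libraries) in 13 comparisons of the named proteasome genes, each with a lower effect in liver. The genes compared were Psmb5 to Psmb10 and Psme1 to Psme4. Of all genes 8.13% were called lower in liver than in LI-coded epithelium and 6.32% lower than in SI-coded epithelium. Liver minus LI-coded epithelium, the log2 fold change differed by -2.15 in Psmb8, -1.92 in Psmb9, -1.78 in Psmb10, -1.28 in Psme1 and -1.52 in Psme2. Among the constitutive catalytic subunits it differed by -0.69 in Psmb5, -0.67 in Psmb6 and -1.03 in Psmb7, and it differed by -0.78 in the activator Psme3. The calls of Psmb5 (adjusted p 0.0612 to 0.145 by edgeR) and Psmb6 (0.0711 to 0.129) were lost in all 6 fits that left out 1 number in all tissues. Liver minus SI-coded epithelium, it differed by -1.88 in Psmb8, -1.85 in Psmb9, -1.06 in Psme2 and -1.06 in Psmb7, and only the Psmb7 call of these 4 held in all 6 such fits. The liver side of these differences includes BM replicate 3, the liver with the highest level of each immune gene.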

How the results depend on the processing

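Without the low-count filter the counts of calls were 0 lower constitutive genes in liver (2 with it), 3 other members higher in LI-coded epithelium (5), 1 in SI-coded epithelium (0), 5 immune genes lower in liver than in SI-coded epithelium (3), and 995 genes higher and 847 lower in SI-coded than in LI-coded epithelium (415 and 433). With DESeq2, 718 genes were lower in liver (473 by edgeR), 4 of them constitutive. With lane 2 alone the counts were 0 lower constitutive genes in liver, and 2 immune, 8 constitutive and 1 other member higher in SI-coded epithelium, and the log2 fold changes turned to 0.45 in Psmb8, 0.21 in Psmb9 and 0.0422 in Psme1 in liver and to 0.0899 in Psme4 in LI-coded epithelium. With RLE size factors the difference in Psmb7 between the epithelial sets turned to -0.0162. The cause was not tested.

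With the replicate block, 1 constitutive gene was lower in liver, 3 other members were higher in LI-coded epithelium and 4 immune genes were higher in SI-coded epithelium, where Psme2 lost its call, as it did with RLE size factors. Same-numbered BMT and BM libraries did not all deviate together (correlations -0.12 to 0.24), nor did all libraries of 1 description number in 2 tissues (-0.04 to 0.19), so the fits within a tissue carry no block. The model of all tissues does carry the description number as a block although these correlations do not show that it marks shared samples, and leaving it out moved no count of calls by over 1.5 times.

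Leaving out each library gave ranges, in liver, of 459 to 1556 genes higher and 110 to 1061 lower, 0 to 1 immune and 0 to 4 constitutive genes lower, and log2 fold changes of -0.92 to 0.40 in Psmb8, -1.01 to 0.19 in Psmb9 and -0.86 to 0.0070 in Psme1. In LI-coded epithelium 20 to 29 constitutive genes and 3 to 5 other members were higher, and Psme4 ran from -0.18 to 0.0899. In SI-coded epithelium 1030 to 1913 genes were higher and 1056 to 1862 lower, with 2 to 5 immune, 3 to 26 constitutive and 0 to 1 other members higher. Liver minus SI-coded epithelium, 726 to 1658 genes were higher and 418 to 879 lower, with 0 to 5 immune and 7 to 19 constitutive genes lower. Liver minus LI-coded epithelium, 1064 to 1887 were higher and 780 to 1278 lower, with 3 to 5 immune and 7 to 20 constitutive genes lower. SI-coded minus LI-coded epithelium, 139 to 771 were higher and 158 to 390 lower, and log2 differences ran from -0.25 to 0.0902 in Psmb9, -0.20 to 0.13 in Psmb5, -0.22 to 0.0449 in Psmb6 and -0.12 to 0.19 in Psmb7. Depth limits what can be said of Psmb11 and Psma8, which stood near or under the floor in epithelium.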
